A study of Mus musculus with 4 samples.

Results

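In 1136 mouse genes of the germ cells sequenced here, a single intron held at least 50% of all the fragments counted on the gene's introns, and the report follows these 1136 dominant introns from Tdrd6+/- to Tdrd6-/- cells. They were chosen on the 2 Tdrd6+/- samples added together, among the 6006 genes that had 5 to 49 intron rows and at least 500 intron counts in those samples. Such genes carried 89396 of the 207562 introns in the files, and 18.9% of them had a dominant intron. Because the Tdrd6+/- shares made the choice, those shares describe the members, and a somewhat lower share in Tdrd6-/- follows in part from the choice itself. The later comparisons of share, of usage and of intron count against gene count use the same Tdrd6+/- counts and carry that limit.

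The study asked whether pre-mRNA splicing is disturbed in primary spermatocytes that lack TDRD6. It sequenced rRNA-depleted, strand-specific RNA libraries of hCD4+ cells sorted magnetically from testes at 20 days post partum (dpp), with 2 Tdrd6+/- samples as controls and 2 Tdrd6-/- samples, each a pool of several mice. The controls thus carry 1 mutant allele, and the human CD4 marker used for the sort was driven by the Tdrd6 promoter, so the cells measured are those in which that promoter was active. Whether the numbered replicates shared a litter or a day is not given in the labels, so the spread between them may include technical differences.

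An intron is transcribed with its gene and removed by the spliceosome, which joins the flanking exons, and RNA on an intron can come from transcripts not yet spliced, from retained introns, from unannotated exons or from another gene that lies inside. Long introns collect more fragments than short ones simply because they offer more sequence. TDRD6, a protein of several Tudor domains, is a component of the chromatoid body of male germ cells, and Tudor domains bind methylated arginines such as those of the Sm proteins of spliceosomal particles.

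The exon joins below are those made when the dominant intron is removed, and they are shown because the junction counts given later count fragments across exactly these letters. Each gives the last 15 and the first 15 coding bases around the join, 5′ to 3′, from GENCODE M21 transcripts (mm10), and the capitals mark the 3 bases on either side of it.
Hrasls5, intron 4 at chr19:7619382-7637306 on the plus strand: acctggctccccCAAGTGagtttgaggcag
Zfp423, intron 1 at chr8:87662508-87686428 on the minus strand: cagacagagttgCAGAACcacacgatgagc
Cd55b, intron 1 at chr1:130388730-130409871 on the minus strand: accgttatatatATGGATttgttgctgtta
Tcfl5, intron 1 at chr2:180622715-180635253 on the minus strand: gactctcttaaaAAGGAAtttgagagcgtg
Grin3a, intron 3 at chr4:49672638-49702718 on the minus strand: tttgctgtcactGAGACTttgcaaatgggc

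Among the 720 dominant introns that could be given a position, 11 contained RefSeq mature miRNAs of GRCm38.p6 on the same strand, 26 mature sequences in all. The largest group, 9 sequences, lay in intron 12 of Clcn5, an endosomal chloride/proton exchanger gene, at chrX:7213011-7316658. The sequences that share a seed (bases 2 to 8, in capitals) within that intron are shown, followed by the pair in intron 7 of Tbpl1, the intron with miRNAs inside that also changed between genotypes.
mmu-miR-500-5p: aAUCCUUGcuaucugggugcuuagu
mmu-miR-362-5p: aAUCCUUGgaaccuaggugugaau
mmu-miR-500-3p: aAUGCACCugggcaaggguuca
mmu-miR-501-3p: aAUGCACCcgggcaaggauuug
mmu-miR-7663-5p: gCUGCUUGgugaucauccacugu
mmu-miR-7663-3p: aGUGUGGAucauaaggagcucc
The libraries did not measure mature miRNAs, so these are positions only. The Clcn5 intron had 189 and 154 counts in Tdrd6+/- and 244 and 125 in Tdrd6-/-, shares of 58.5%, 57.2%, 51.2% and 54.1% of the gene's intron counts, and usage did not pass the test.

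The libraries were similar in depth, 43778449 to 47221554 tallied fragments per sample, but not in how much of it fell on introns. On introns fell 31.0% and 27.1% of the tallied fragments of Tdrd6+/- replicates 1 and 2, against 27.4% and 21.9% for Tdrd6-/- replicates 1 and 2, so Tdrd6-/- replicate 2 stood apart at the low end and Tdrd6+/- replicate 1 at the high end. Dominant introns held 10.3% to 11.3% of all intron counts in each sample. Tdrd6 itself, the deleted gene, was counted 33220 and 39322 times in Tdrd6+/- and 359 and 400 times in Tdrd6-/-. On a scale of counts per library total (CPM), of 8 marker genes of pachytene and diplotene spermatocytes found, the 7 other than Tdrd6 summed to 2766 to 2832 CPM in Tdrd6+/- and 2690 to 2887 CPM in Tdrd6-/-, against 76.0 to 76.1 and 92.0 to 99.1 CPM for 6 Sertoli cell markers, 22.4 to 23.6 and 27.4 to 31.5 CPM for 6 spermatogonial markers and 10.1 to 13.5 and 20.8 to 22.7 CPM for 7 round spermatid markers. Among the round spermatid markers, Tnp1, Tnp2, Prm1, Prm2 and Tssk6 were under 1 CPM, so that sum rests mostly on Acrv1 and Spaca1. Leydig cell, macrophage and peritubular myoid markers summed to at most 9.13 CPM in any sample. The part of these differences in the results was not tested, and in pooled RNA fewer cells of a type and less RNA per cell cannot be told apart.

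The dominant introns were mostly the long introns of their genes. A position was taken from GENCODE M21 where the number of gaps between annotated exons equalled the number of intron rows (720 members), and the description below uses the 501 members whose exon segments and junctions also matched in number. Their median length was 21142 bp, against 1526 bp for the 36206 other introns of the same class of genes. In 427 of the 501 (85.2%) the dominant intron was the longest of its gene, with a median of 53.3% of the gene's intron length, and 62 spanned more than 100 kb. The first intron in the direction of transcription was dominant in 206 genes (41.1%), where first introns made up 6.48% of the others. That contrast was smaller among longest introns alone, of which 43.8% were first when dominant and 24.6% when not. The last intron held no such place, with 6.59% of members and 6.95% of the others.

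How much of the gene's intron length the longest intron took went with how often a gene had a dominant intron. None of 399 genes in which it took under 20% had a dominant intron, and 60 of 602 (9.97%) did where it took 30 to 40%. Where it took 50 to 60% the number was 121 of 226 (53.5%), and above 60% it was 189 of 232 (81.5%). Dominant introns also had a median of 1.55 times the counts per base of the rest of their gene's introns, against 1.01 times for other introns, a difference the choice by count builds in. The 72 members that were neither the longest intron nor filled by another gene must by the choice exceed the density of the remaining introns. They had a median of 6.43 times that density at a median length of 8337 bp.

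**Figure D1:**
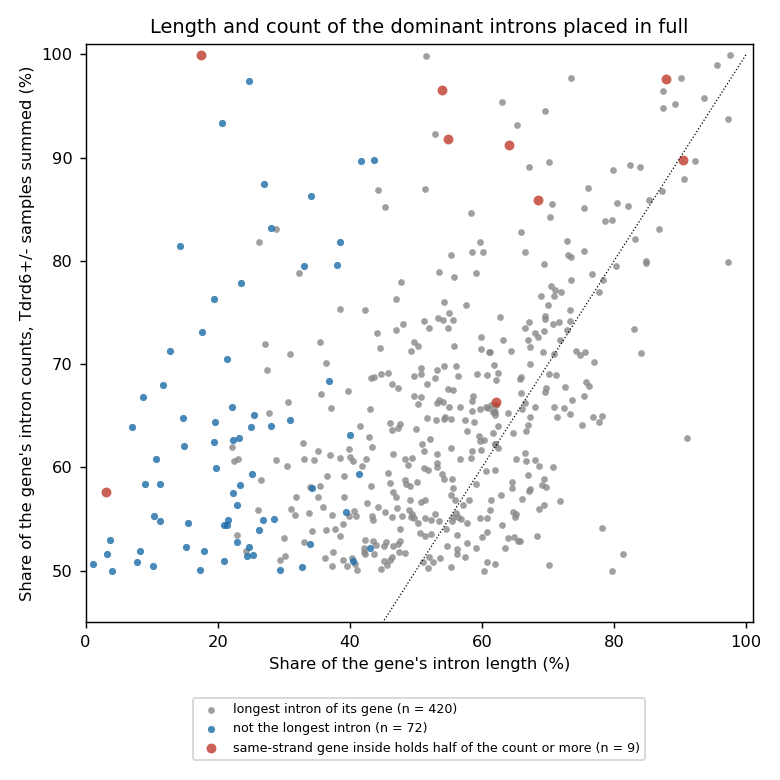
Each point is 1 of the 501 dominant introns placed in full, by its share of the gene's intron length (x axis, %) and its share of the gene's intron counts in the 2 Tdrd6+/- samples summed (y axis, %), with the dotted line at equal shares. The 420 longest introns lie on both sides of the line, while the 72 that are not the longest all lie above it. The position of the 72 is built in, because such an intron takes a smaller share of the length than the minimum count share set for members.

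The shortest members show the other end of that range. Of the 8 members placed in full that were shorter than 1 kb, intron 1 of Cdca3, a cell cycle gene that triggers mitotic entry, had 48 bp and held 53.3%, 52.7%, 51.3% and 54.8% of the gene's intron counts in the 4 samples (Tdrd6+/- 1 and 2, then Tdrd6-/- 1 and 2, the order used throughout). Intron 5 of Gpx4, a glutathione peroxidase abundant in spermatogenic cells, had 91 bp and held 47.8%, 53.3%, 50.2% and 57.2%. Intron 1 of Eif5a, a translation factor, had 95 bp and held 45.9%, 57.3%, 53.3% and 51.4%. These genes were chosen for length after their values were seen, and all 3 had few intron counts beside their exonic ones, with at most 0.0887 intron counts per gene count.

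In 328 of the 501 members the annotation held a junction that removes exactly this intron, and 189 of these had at least 20 junction counts over the 4 samples while 43 had none. The share without a junction count was 13.1% for members and 7.11% for other introns. The Hrasls5 join was counted 1613, 2094, 2082 and 2446 times, or 13.6%, 13.0%, 12.1% and 12.6% of the gene's count, and the Tcfl5 join 1471, 1609, 1935 and 1931 times. The Zfp423 join was counted 83, 118, 125 and 144 times and the Cd55b join 267, 339, 410 and 400 times. The Grin3a join had 0 counts in every sample.

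Grin3a belonged to a small group in which the dominant intron carried the counts of another gene. In 16 of the 720 placed members (9 of the 501), annotated genes on the same strand inside the intron had at least 50% as many counts as the intron. Grin3a encodes an NMDA receptor subunit, and its intron 3 was counted 17781, 21960, 24061 and 27006 times. Ppp3r2, which lies inside it and encodes the testis form of the calcineurin regulatory subunit, was counted 17726, 21923, 23989 and 26927 times. Intron and inner gene thus moved together from sample to sample, while the Grin3a gene row had only 18, 21, 18 and 7 counts. The same held for intron 14 of Radil, with 14953, 19356, 18082 and 17182 counts, and Papolb, a cytoplasmic poly(A) polymerase of spermatogenic cells, with 13454, 18045, 16708 and 16294.

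Small RNA genes and pseudogenes also filled introns. Intron 12 of Chd3, a helicase of the NuRD complex, has 540 bp, and its 583, 599, 772 and 941 counts were nearly those of the scaRNA gene Gm22442 inside it, with 574, 594, 765 and 934. Intron 4 of Luc7l, a splicing factor gene, had 680, 823, 457 and 375 counts and holds the processed pseudogene Gm16580 with 441, 642, 293 and 259. The pseudogene fell with the intron: its log2 change was -1.20 ± 0.21 (SE) at an adjusted p of 0.0012 (edgeR), and the usage of the Luc7l intron fell with a log2 change of -0.66 ± 0.20 and an adjusted p of 0.0587 (DESeq2). Luc7l was placed by its number of gaps only.

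The counts on introns followed the strand. Inner genes with at least 1000 gene counts in the 2 Tdrd6+/- samples were compared with the introns around them: each of 13 on the same strand lay in an intron with at least 89.3% as many counts as the gene, whereas 7 of 16 on the opposite strand lay in introns with under 20% as many.

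**Figure D2:**
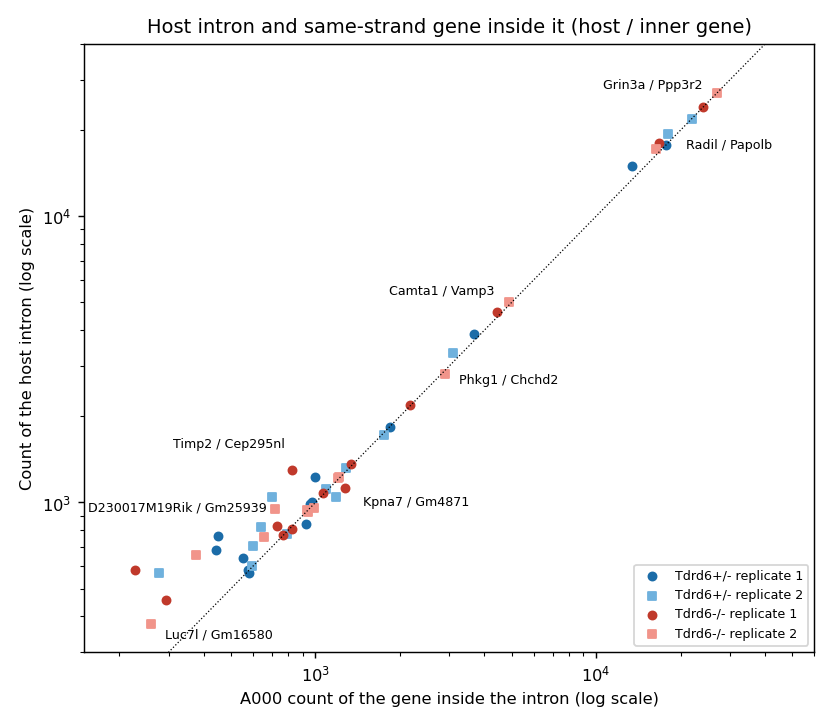
Count of the dominant intron (y axis, log scale) against the count of the same-strand gene inside it (x axis, log scale) for 13 hosts with a single such gene, 4 samples each, with the dotted line at equal counts. The Grin3a and Ppp3r2 points lie on the line at 17726 to 27006 counts, and points above the line are introns with counts beyond those of the inner gene.

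Shares above 90% were rare, with 52 members, while 474 had 50 to 60%. The median pooled share was 62.7%, with quartiles at 55.1% and 72.6%. Beside Grin3a, the highest shares belonged to intron 8 of Kng2, a kininogen gene, with 100%, 100%, 98.8% and 99.4%, to intron 1 of the potassium channel gene Kcnd2 with 100%, 99.9%, 99.6% and 99.8%, and to intron 5 of the non-coding gene Gm12648 with 99.8% in each of the first 3 samples and 99.9% in the last. Introns of Ttc34 and Yjefn3 completed the 6 highest, each at 99.0% or more in every sample. These hosts except Ttc34 had few counts of their own: Kng2 had at most 2 and Gm12648 at most 8 gene counts in a sample.

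Counting error on a share was small beside these levels. The Wilson 95% interval of a member's share in a sample had a median half-width of 3.08 percentage points and at most 9.66, and it covers counting error only. Replicates differed by a median SD of 1.62 percentage points in Tdrd6+/- and 2.39 in Tdrd6-/-.

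Compared with the gene row (A000, the fragments on the gene's exons as the files count them), the dominant introns ranged widely. In 1062 genes with a gene row of their own, the median was 0.930, 0.776, 0.783 and 0.539 intron counts per gene count, and 354 introns outnumbered the gene row in every sample. These ratios set fragments against fragments and are not corrected for length. Among genes with at least 100 gene counts in each sample, the highest ratios were those of intron 5 of Fgf14, an intracellular fibroblast growth factor, with 112, 54.5, 35.8 and 19.1, and of intron 1 of Grip1, a synaptic scaffold protein, with 73.4, 66.7, 76.5 and 47.1. Intron 12 of Snx32, a sorting nexin, followed with 35.6, 32.8, 37.6 and 45.2, and intron 9 of Cmss1 with 26.7, 37.0, 13.1 and 13.7.

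Members also differed in which library held most of their counts. After scaling each library to its intron counts, 461 of the 1136 (40.6%) were highest in Tdrd6+/- replicate 1, near the 42.6% of all 28903 introns tested. Tdrd6-/- replicate 1 was the highest for 292 members (25.7%), above the 15.8% of all introns tested. Those 292 were not spread evenly. Of 93 members with 10 or more intron counts per gene count in Tdrd6+/-, 51 (54.8%) were highest in Tdrd6-/- replicate 1, and of 569 with under 1 it was 77 (13.5%).

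The X chromosome stood out in the same way. It held 28 members among its 84 placed genes of the class (33.3%), against 18.3% of 3775 autosomal genes. X-linked members were also long: the 27 placed in full had a median of 70759 bp, against 21142 bp for all 501. The part of length in the X-linked values was not tested. In 24 of the 28 the scaled count was highest in Tdrd6-/- replicate 1, with medians of 0.906, 1.09, 1.54 and 0.879 times the Tdrd6+/- mean, so the genotypes overlapped. Intron 2 of Rtl4, a retrotransposon-derived gene chosen after its values were seen, had 2778, 3485, 5328 and 1914 counts. Its share hardly moved, at 98.9%, 99.0%, 98.6% and 98.7%. X-linked dominant introns had medians of 5.94, 5.77, 6.35 and 3.97 counts per gene count, against 0.813, 0.691, 0.675 and 0.459 for autosomal ones, and none of the 28 passed the usage test. In 21 of them the intron outnumbered the gene row in every sample.

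The comparison between genotypes first asked whether dominance as a whole changed. The median share of the 1136 introns was 63.0% and 62.1% in Tdrd6+/- and 61.6% and 60.2% in Tdrd6-/-, a difference of -1.68 percentage points. The groups did not overlap, but 2 samples against 2 cannot give a two-sided exact permutation p below 0.333, which is the value found. The order of the 2 outermost samples, Tdrd6+/- replicate 1 and Tdrd6-/- replicate 2, was also that of the libraries' intron share, and the middle 2 had nearly equal intron shares (27.1% and 27.4%), so genotype and the intron content of the library cannot be told apart for this value. In both Tdrd6-/- samples 910 of the 1136 still held at least 50%. Choosing by the same rule on the Tdrd6-/- samples gave 1057 introns, of which 949 were shared, or 83.5% of the Tdrd6+/- choice and 89.8% of the Tdrd6-/- choice. With that choice the difference was -1.49 percentage points.

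**Figure D3:**
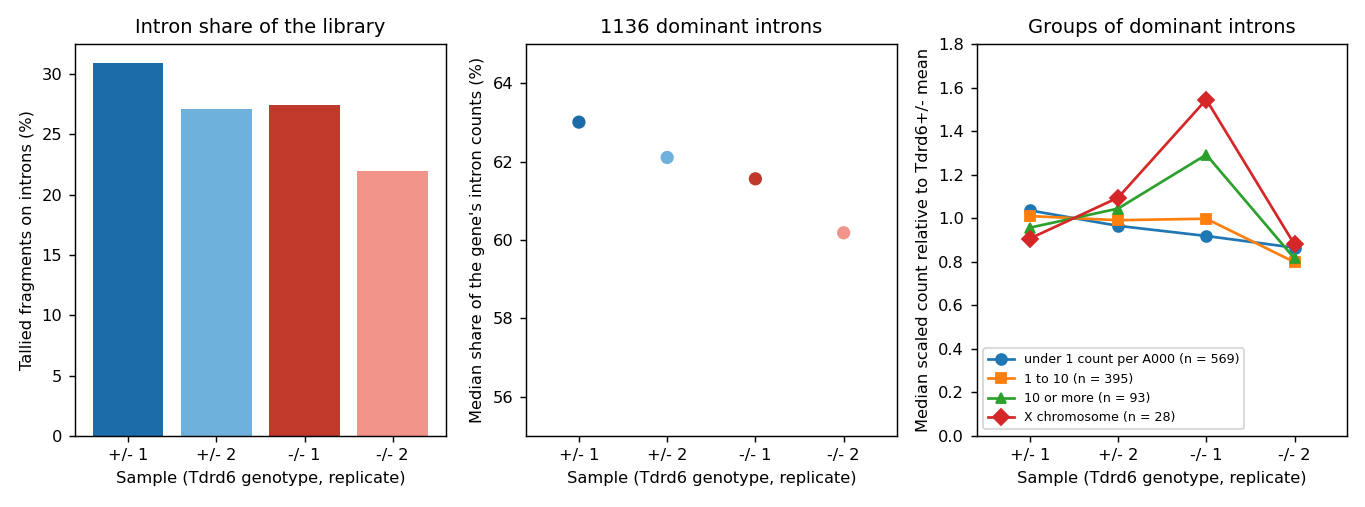
Left, the share of tallied fragments on introns in each sample (bars, %). Middle, the median share of the 1136 dominant introns in each sample (points, y axis from 55 to 65%), falling from 63.0% to 60.2%. Right, the median library-scaled count relative to the Tdrd6+/- mean for 3 groups by intron counts per gene count and for the 28 X-linked members, which peak in Tdrd6-/- replicate 1 at 1.54.

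The usage test asked, for each intron, whether its count changed between genotypes relative to the other introns of its gene (the DEXSeq model, fitted with DESeq2, false discovery rate 0.1). All 1136 members had the mean count it required, and 49 passed (4.31%), 42 lower and 7 higher in Tdrd6-/-. Over all 28903 introns tested, 1.94% passed, 1.22% lower and 0.716% higher. Since the members were chosen for high Tdrd6+/- shares, their excess on the lower side is partly built in, and choosing them on the Tdrd6-/- samples instead gave 37 that passed, 26 lower and 11 higher. The calls rested on the libraries with the extreme intron shares: without Tdrd6+/- replicate 1 none passed and without Tdrd6-/- replicate 2 only 2 did, although 80 and 75 had an unadjusted p under 0.05. Without Tdrd6+/- replicate 2 the number was 26, and without Tdrd6-/- replicate 1 it was 120. No member passed when the dispersion trend was drawn over the counts of intron and rest together, with 48 at an unadjusted p under 0.05, and 19 passed in edgeR.

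In all 49 the 2 genotypes did not overlap in share. Non-overlap alone was common, as 412 members (36.3%) lay lower in both Tdrd6-/- samples and 154 (13.6%) higher, against 23.2% in either direction over all introns tested. The absolute log2 changes of the 49 ran from 0.50 to 1.20. In 30 of the 42 that fell, the shares descended from Tdrd6+/- 1 over Tdrd6+/- 2 and Tdrd6-/- 1 to Tdrd6-/- 2. All 7 that rose ascended in that order. Of the 42, 23 still held at least 50% in both Tdrd6-/- samples and 12 were under 50% in both.

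Among the introns that fell, intron 6 of Nav2, a neuron navigator protein, held 63.2% and 55.1% of its gene's intron counts in Tdrd6+/- and 42.9% and 45.6% in Tdrd6-/-. This was 59.2% ± 5.74 against 44.2% ± 1.89 (SD, n = 2), a log2 change of -0.88 ± 0.18 (SE) with an adjusted p of 0.00157. Intron 4 of Hrasls5, a phospholipid-modifying acyltransferase of testis, held 62.2% and 53.3% against 45.2% and 36.0%, with 3048, 2246, 1639 and 1137 counts. Its log2 change was -1.01 ± 0.21, with an adjusted p of 0.00163. The join across it, printed above, did not follow the intron, since its share of the gene's count was 13.6% and 13.0% in Tdrd6+/- and 12.1% and 12.6% in Tdrd6-/-.

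Intron 1 of Zfp423, a zinc finger transcription factor, was the only member passing in usage that was placed in full and was not the longest of its gene. It lies last in the direction of transcription and held 52.9% and 51.0% against 35.4% and 33.3% (log2 change -1.04 ± 0.22, adjusted p = 0.00173), on 125 to 299 counts. Intron 6 of Stom, the membrane protein stomatin, held 55.3% and 52.6% against 41.5% and 35.8% (log2 change -0.89 ± 0.20, adjusted p = 0.00318). Intron 1 of Cd55b, a testis form of the complement regulator CD55, held 73.2% and 68.3% against 61.6% and 53.6% (log2 change -0.83 ± 0.19, adjusted p = 0.00522). For Stom and Cd55b, as for Hrasls5, Tdrd6-/- replicate 2 lay farthest from the controls.

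Intron 1 of Tcfl5, a basic helix-loop-helix factor of spermatocytes, held 66.4%, 63.0%, 55.3% and 50.7%, and intron 7 of Tbpl1, a TBP-related factor needed for spermatid development, held 65.3%, 64.5%, 57.1% and 45.3% (both named after their values were seen). Junction counts could be set beside 12 of the introns that fell. Junction count per gene count, pooled by genotype, had a median log2 change of 0.10 in these 12, with a range from -0.31 to 0.55, against 0.12 in all 189 members with at least 20 junction counts.

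Of the 7 introns that rose, intron 9 of Fam189a1 had the smallest adjusted p. It held 70.4% and 73.4% in Tdrd6+/- and 80.9% and 87.3% in Tdrd6-/- (log2 change 1.07 ± 0.21, adjusted p = 0.00113). The intron, placed by number of gaps only, contains Nsmce3, a subunit of the SMC5/6 complex, and its 989, 1113, 1077 and 1225 counts followed the 954, 1087, 1061 and 1210 counts of Nsmce3. All introns of the gene together had 1405, 1517, 1331 and 1403 counts. Intron 1 of Camta1, a calmodulin-binding transcription activator, likewise contains Vamp3, a SNARE protein of endosomes. It held 50.3% and 51.9% against 58.7% and 69.6% (log2 change 0.79 ± 0.20, adjusted p = 0.015), with 3880, 3336, 4626 and 5006 counts against 3669, 3095, 4431 and 4889 of Vamp3. Neither inner gene passed in expression.

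For the other 3 risers named here, either no such gene was found inside or no position was known. Intron 2 of Galntl6, a glycosyltransferase-like gene, held 52.2% and 53.6% against 63.0% and 74.3% (log2 change 0.97 ± 0.21, adjusted p = 0.00318), and it has no position here. Intron 3 of Slc39a8, a zinc and manganese transporter, held 49.8% and 52.8% against 61.2% and 69.2% (log2 change 0.83 ± 0.19, adjusted p = 0.0067). Its own counts were 683, 688, 746 and 763, while those of all introns of the gene were 1372, 1302, 1218 and 1103. Intron 2 of the non-coding gene Gm14152 held 80.3% and 84.0% against 87.0% and 88.8% (log2 change 0.65 ± 0.17, adjusted p = 0.016).

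**Figure D4:**
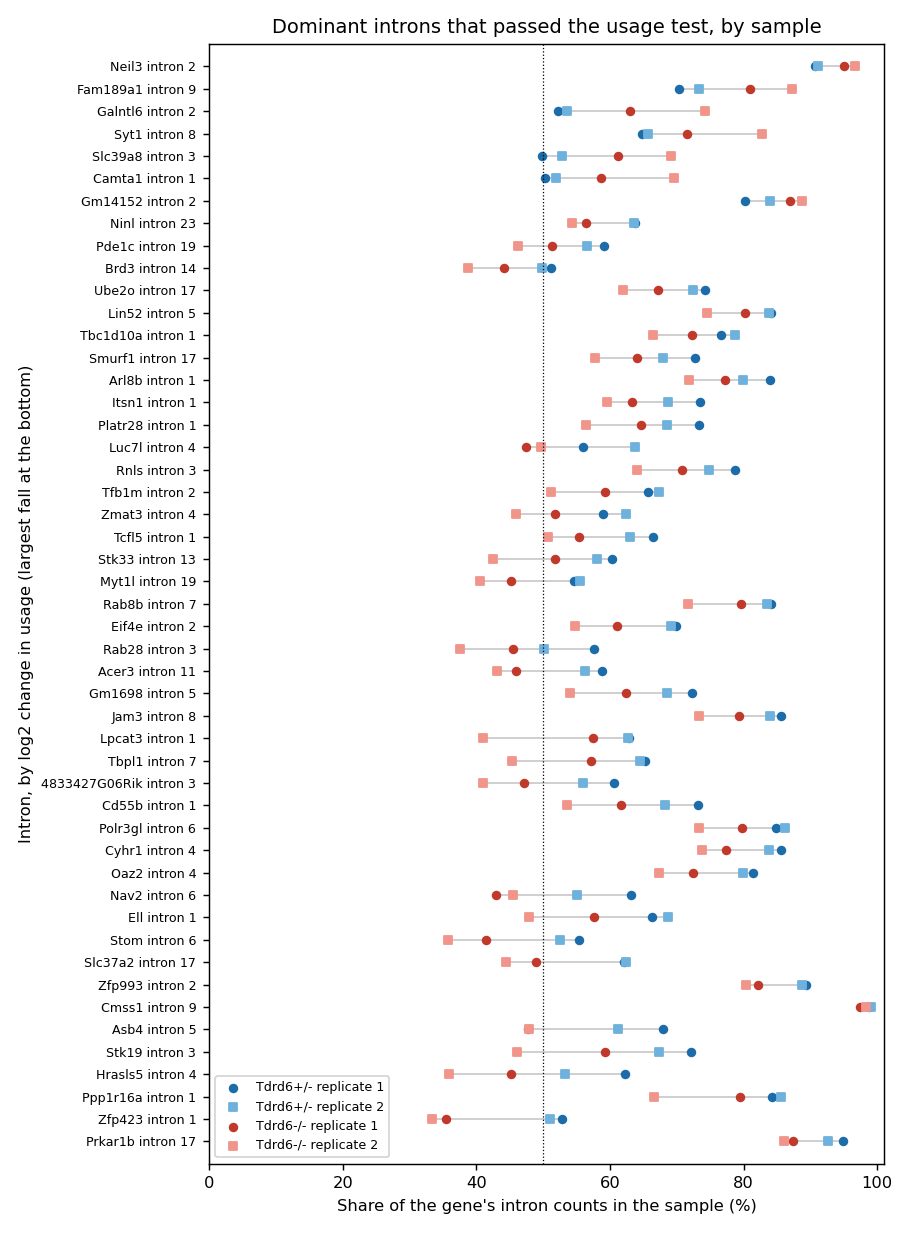
Share of the gene's intron counts (x axis, %) of the 49 dominant introns that passed the usage test, each row an intron with its 4 samples, ordered by log2 change with the risers on top and the dotted line at 50%. In the 42 lower rows the red Tdrd6-/- points lie left of the blue Tdrd6+/- points, and in 38 of them Tdrd6-/- replicate 2 lies beyond replicate 1.

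The second comparison set the intron count against the gene row, with a separate library scaling for introns and for gene rows. Of 1062 members with a gene row of their own, 84 (7.91%) passed, 68 lower and 16 higher in Tdrd6-/-. Of all 29816 introns tested 4.25% passed, 3.2% lower and 1.05% higher. The Tdrd6+/- intron counts that chose the members are the numerator here, so an excess on the lower side is partly built in. Members also had high counts by the rule, so these percentages are not like for like. Of the 68 that fell, 65 had ratios descending in the order of samples used here, an order that was not counted over all introns tested. Without Tdrd6+/- replicate 1, 4 passed, and without Tdrd6-/- replicate 2, 3 did. With the gene-row scaling for both counts, which keeps the libraries' different intron content in the ratio, the median of all introns moved to -0.20 and that of members to -0.36 (log2), 5 members passed and all were lower, and no called member turned its direction. Under that scaling 5.44% of all calls were higher, against 24.7% in the first. Introns that fell per gene count had a median log2 change of -0.79 and those that rose of 0.79, and with the common scaling these were -1.10 and 0.48.

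Stom intron 6 had the smallest adjusted p among those that fell, with 0.201 and 0.168 counts per gene count in Tdrd6+/- and 0.0849 and 0.0617 in Tdrd6-/- (log2 change -1.03 ± 0.21, adjusted p = 0.000501). Fgf14 intron 5, at chr14:124192903-124676509, fell from 112 and 54.5 to 35.8 and 19.1 counts per gene count (log2 change -1.26 ± 0.28, adjusted p = 0.00283), with a share that stayed between 92.4% and 95.3%. Intron 19 of Myt1l, a zinc finger factor of neurons, had 0.940 and 0.829 against 0.468 and 0.309 (log2 change -0.90 ± 0.20, adjusted p = 0.00283). Intron 7 of Prim2, the large primase subunit, had 1.48 and 1.15 against 0.735 and 0.388 (log2 change -0.97 ± 0.22, adjusted p = 0.00354). None of the 68 host genes of this group passed in expression, and the median log2 change of their gene rows was 0.06. Of the 68 introns, 24 also fell in usage.

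Of the 16 introns that rose per gene count, 11 had host genes that fell in expression. The gene row is the denominator of the ratio, so a fall in it raises the ratio by construction. Ahcyl1, which encodes a partner of the IP3 receptor, is an example. Its gene row had 2651, 2408, 1491 and 1256 counts (log2 change -1.12 ± 0.15, adjusted p = 7.69e-05, edgeR), while its intron 14, at chr3:107677832-107695784, had 485, 388, 554 and 329. The ratio was 0.183 and 0.161 in Tdrd6+/- and 0.372 and 0.262 in Tdrd6-/- (log2 change 1.18 ± 0.21, adjusted p = 2.64e-05). Intron 8 of Hnrnpd, an AU-rich element binding protein, had 0.673 and 0.529 against 1.06 and 0.947 (log2 change 1.06 ± 0.21, adjusted p = 0.000394), and its gene row fell by 1.24 on the log2 scale (adjusted p = 9.85e-05). Its share of the gene's introns was 66.5%, 67.6%, 68.6% and 64.8%, with a log2 change in usage of -0.02.

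Camta1 intron 1, with Vamp3 inside, was the only one of the 16 that also rose in usage, with 5.38 and 4.35 against 6.96 and 8.34 counts per gene count (log2 change 0.97 ± 0.23, adjusted p = 0.007). Intron 1 of 4932431P20Rik had 0.0741 and 0.0621 against 0.0953 and 0.114 (log2 change 0.93 ± 0.25, adjusted p = 0.0166). Its host gene was among those that fell, with 3847, 6779, 4271 and 2901 gene counts (log2 change -0.79 ± 0.19, adjusted p = 0.0209, edgeR). The intron itself had 285, 421, 407 and 330 counts. In 14 of the 16 the samples of the genotypes did not overlap, which describes called introns only, as non-overlap of this ratio was not counted over all introns. In 4 of the 16 the ratio was higher in Tdrd6-/- replicate 2 than in replicate 1, whereas 67 of the 68 that fell were lower in replicate 2.

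Host gene expression was tested for 1046 of the 1136 genes. In 69 (6.60%) it passed, 67 lower and 2 higher in Tdrd6-/-, against 4.8% of all 16555 genes tested, 3.78% lower and 1.02% higher. Without Tdrd6-/- replicate 2 the number was 17. The smallest adjusted p belonged to Ppp2r2a, a regulatory subunit of protein phosphatase 2A, with 1776, 2089, 1023 and 1061 gene counts (log2 change -1.12 ± 0.15, adjusted p = 6.5e-05). Its dominant intron 8 held 61.9%, 60.2%, 62.3% and 56.3% of the intron counts. The 2 host genes that rose were Slc22a14, an organic solute transporter of sperm, with 173, 240, 505 and 446 counts (log2 change 0.97 ± 0.21, adjusted p = 0.011), and Slc7a2, a cationic amino acid transporter, with 256, 296, 572 and 469 (log2 change 0.68 ± 0.20, adjusted p = 0.0672). The dominant introns of both did not pass the usage test, and that of Slc22a14 contains the genes Oxsr1 and Myd88. In the 67 host genes that fell, 2 introns passed the usage test and the median log2 change in usage was -0.12, close to the -0.11 of all members.

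**Figure D5:**
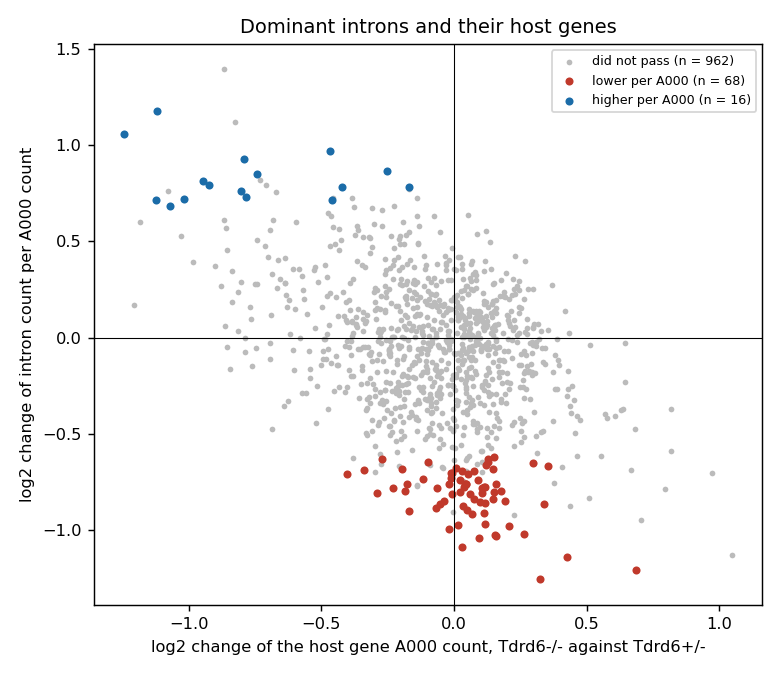
log2 change of the host gene's row (x axis) and of the intron count per gene count (y axis), Tdrd6-/- against Tdrd6+/-, for the members tested in both. The 16 that rose per gene count lie at host changes below 0, and the 68 that fell lie around 0. The gene row enters both axes, with opposite sign, so part of the slope is built in.

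Genes of RNA processing, chromatin and meiosis were read by the lists named in the processing notes. Of 64 splicing genes, 49 were in the class and 9 had a dominant intron (18.4%), close to the 18.9% of all genes. In the list, 1 intron fell in usage (Luc7l), 1 rose per gene count (Hnrnpd), 1 fell (Luc7l), and 2 host genes fell in expression (Hnrnpd and Srsf4). Intron 7 of Tra2a, a splicing activator whose own transcript is regulated by splicing, had the most counts of these, 7387, 6525, 5525 and 3595, with shares of 94.4%, 94.0%, 93.9% and 90.9%. Its paralog Tra2b had intron 9 at 51.5%, 48.7%, 51.8% and 51.2%. The SR protein genes Srsf4 (intron 1) and Srsf10 (intron 3) had shares of 61.2%, 60.3%, 60.1% and 57.3%, and of 73.0%, 71.1%, 73.1% and 73.0%. The median log2 change in usage over the 9 was 0.07.

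Among 45 chromatin regulators, 37 were in the class and 5 had a dominant intron (13.5%). Intron 14 of Brd3, a BET bromodomain protein, held 51.2%, 49.9%, 44.2% and 38.8% and fell in usage (log2 change -0.53 ± 0.17), with an adjusted p just under the threshold of 0.1. Chd3 intron 12 rose per gene count, with 0.162, 0.161, 0.186 and 0.270 (log2 change 0.78 ± 0.27, adjusted p = 0.0978). Its counts are nearly all those of the scaRNA gene Gm22442 inside it, which did not pass in expression (adjusted p = 0.46, edgeR). Intron 1 of Kdm5b, a histone H3K4 demethylase, held 50.8%, 53.4%, 50.3% and 48.1%, and intron 10 of Setd1a, a H3K4 methyltransferase, held 81.6%, 83.6%, 81.2% and 79.7%. Usage did not pass for either.

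Genes of meiosis and of the sperm tail were almost without dominant introns. Of 30 meiosis genes in the class only Hormad2 had such an intron (3.33%), and none of the 30 sperm flagellum and acrosome genes or of 3 snoRNA host genes did. Intron 1 of Hormad2, an axis protein of unsynapsed chromosomes, lies at chr11:4346667-4408589 and held 59.4%, 59.1%, 59.6% and 52.9%, with no call. Intron 1 of Stim1, the calcium sensor of the endoplasmic reticulum and a gene the study took up by RT-qPCR, held 62.9%, 63.1%, 63.4% and 58.2%. It did not pass in usage (adjusted p = 0.875) or per gene count (adjusted p = 0.699). The Stim1 intron that the study names for RT-qPCR carries another number, so these values are not a measure of that intron.

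At the edge of the choice, intron 2 of Zfp788, intron 1 of Dvl1 and intron 1 of Fbxl5 held exactly 50% of the pooled counts. Just outside lay intron 1 of Mpp5 with 49.99%, intron 3 of Mdga2 with 49.93% and intron 5 of Sh3gl3 with 49.92%. In Tdrd6-/- the 3 inside held 36.0% and 36.7% (Zfp788), 45.7% and 43.6% (Dvl1) and 48.9% and 48.4% (Fbxl5). The 3 outside held 42.2% and 36.3% (Mpp5), 43.5% and 48.0% (Mdga2) and 49.3% and 40.7% (Sh3gl3).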

How the data were processed

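Paired-end fragments had been mapped by the authors to the mouse genome (mm10) with GSNAP and assigned to Ensembl genes. Raw counts were deposited per sample, in a file for numbered introns and a file for gene (A000), exon segment and junction rows, and the counting program is not given in the sources used here. The libraries were strand-specific. Members and gene lists were chosen with earlier results of these data known. Named introns follow a rule: the 6 highest shares, the smallest adjusted p in each direction without overlap (5 for usage, 4 per gene count, 3 for hosts), 3 on either side of 50%, the 4 highest ratios, the study's RT-qPCR genes and up to 4 members per list. A few introns that the rule names, and the values that rest on them, are not reported here. The lists were 27 snoRNA hosts, 41 meiosis, 54 flagellum and acrosome, 64 splicing and 45 chromatin genes.

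Usage and the count per A000 count were fitted in DESeq2 1.42.0 (R 4.3.3) as pairs of counts with sample, feature and feature by genotype terms, by a likelihood ratio test on introns with at least 10 counts, with median-of-ratios size factors, a dispersion trend over the intron's own mean, independent filtering (mean count 85.5 for usage) and Benjamini-Hochberg adjustment at 0.1. Expression was tested with edgeR 4.0.16 (TMM, quasi-likelihood). DEXSeq was not installed. The 74 hosts in merged gene rows have no ratio. Introns were numbered along the chromosome, also on the minus strand: in 1635 such genes, log count followed log intron length with a median correlation of 0.85 in this order, and of -0.09 in the reverse. The scripts were tested on simulated counts.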

Additional observations from a re-analysis of the deposited data

How the results depend on the processing

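The 49 members that passed in usage became 19 in edgeR, 26 without independent filtering, 20 among members placed by number with no annotated gene inside (a smaller set), 0 with the dispersion trend over both counts (added after seeing the data), and 0 to 120 when a sample was left out. The 84 that passed per gene count became 5 with the same gene-row size factors for both counts, 35 without independent filtering, 50 with a minimum share of 60%, 25 without another gene inside, 0 with the trend over both counts (82 at an unadjusted p under 0.05) and 3 to 117 when a sample was left out. Host genes that passed, 69 in all, were 17 to 85 when a sample was left out. The number of dominant introns was 2005 at a minimum share of 40% and 662 at 60%. Except where the construction is named, the cause was not tested. Every other planned setting kept the counts of members and of calls within 1.5 times, and the difference in median share stayed negative under each.

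The replicate numbers are shared only as numbers (same-number correlation 0.05 for introns, -0.12 for gene rows). With a replicate block, 71 members passed in usage, 95 per gene count and 84 host genes in expression. Crossed numbers gave 80 host genes. All named introns and hosts kept their direction under every setting run; single introns were not run without independent filtering. The 10 introns named for usage lost their call without Tdrd6+/- replicate 1, and 9 of them without Tdrd6-/- replicate 2. Of the 8 named per gene count, 6 lost it without the former and 6 without the latter. The number of samples, 2 per genotype, and the unequal intron content of the libraries limit what these counts can show.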

Other observations

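The introns below were named after their values were seen, the first 2 for their counts and the last from among the longest members, of which it was not the longest. Intron 5 of the non-coding gene Gm12648 had 69559, 38532, 52671 and 42574 counts, beside 1, 0, 8 and 1 on its gene row. Intron 4 of Immp2l, a mitochondrial inner membrane peptidase gene, spans 517806 bp and had 50445, 26609, 23894 and 14447 counts, with shares of 79.8%, 76.0%, 78.2% and 79.2%, so the count in the first sample was the highest while the share hardly moved. Intron 28 of Erbb4, a receptor tyrosine kinase gene, spans 367141 bp and had 1101, 1457, 2622 and 1264 counts, highest in Tdrd6-/- replicate 1.

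Junctions absent from the annotation were counted in 277 of the host genes. This was 26.1% of those with a gene row of their own, against 31.9% of the other genes of the class.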
